A study of Homo sapiens with 4 samples.

Results

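The core and linker histone genes named by the symbols H1-, H2AC, H2BC, H3C and H4C with a number, together with H2AJ, were followed on arrays of 2 human lung cancer lines after siRNA against hMOF. KAT8 is the gene of this enzyme, which acetylates histone H4. Members were the probe sets annotated to exactly 1 gene with such a symbol, with no filter on signal. The rule used names alone and gave 57 probe sets of 46 genes, out of 41091 probe sets of 19775 genes that the annotation names singly. By family there were 12 probe sets of 9 H1 genes, 14 of 9 H2A genes, 14 of 13 H2B genes, 8 of 7 H3 genes and 9 of 8 H4 genes. All 46 genes were found by identifier in RefSeq's GRCh38.p14 gene table, where 74 genes have a symbol of this form, so some histone genes were not followed singly here. Of the 46 genes, 40 lie on chromosome 6, by that source, and chromosomes 1, 3 and 12 hold 2 each.

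A549 is a lung adenocarcinoma line with epithelial features, and H1299 is a non-small cell lung cancer line from a lymph node metastasis. Each line, grown in DMEM with 10% fetal bovine serum, was transfected by Lipofectamine with a scramble siRNA or with hMOF siRNA. The groups were A549 with scramble siRNA, A549 with hMOF siRNA, H1299 with scramble siRNA and H1299 with hMOF siRNA, with 1 array of total RNA each, 4 arrays in all. The labels used here name neither the siRNA sequence nor when the cells were harvested, and do not say how many cultures stand behind an array. Groups follow the source names and titles, because a further treatment tag names the opposite siRNA on 2 of the 4 arrays.

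Replication-dependent histone genes are packed in clusters, lack introns, and are transcribed mainly in S phase to supply histones for new DNA. Their mRNAs usually end in a conserved stem-loop in place of a poly(A) tail. Several H2A and H2B genes, and genes outside the clusters such as H2AJ, also give polyadenylated transcripts. Which of these forms the arrays read was not tested, so a signal is not taken as the total mRNA of a gene. The core proteins H2A, H2B, H3 and H4 form the nucleosome, and linker histone H1 binds the DNA that enters and leaves it. Members of a family share long stretches of coding sequence, so a probe set can read several of them. On this array type, probe sets ending in _x_at hold probes that may also match other sequences, those ending in _s_at hold probes common to several transcripts, those ending in _a_at hold probes for several transcripts of 1 gene, and plain _at sets are taken as specific to their transcript. The suffix of a histone probe set that is not plain is therefore given where the set is described. A value is that of the probe set rather than of a gene proven to be read alone.

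The promoters of the 5 genes that passed the siRNA test below are shown with that of H1-2, a linker histone gene with high and even signals, because the sequence elements of histone genes differ by family. Each is the 230 bases before the gene's start in RefSeq's GRCh38.p14 promoter table, read 5′ to 3′ on the gene's own strand. The stretches were chr6:26157891-26158120 on the plus strand for H2BC5, chr6:26123927-26124156 on the minus strand for H2BC4, chr6:27893195-27893424 on the plus strand for H2BC17, chr12:14774175-14774404 on the plus strand for H2AJ, chr6:26285535-26285764 on the minus strand for H4C8 and chr6:26056471-26056700 on the minus strand for H1-2. Capitals mark matches, on either strand, to the CCAAT box CCAAT, the TATA box TATAAA, the octamer ATTTGCAT found in H2B promoters, and the H1 box AAACACA of linker histone promoters.
H2BC5: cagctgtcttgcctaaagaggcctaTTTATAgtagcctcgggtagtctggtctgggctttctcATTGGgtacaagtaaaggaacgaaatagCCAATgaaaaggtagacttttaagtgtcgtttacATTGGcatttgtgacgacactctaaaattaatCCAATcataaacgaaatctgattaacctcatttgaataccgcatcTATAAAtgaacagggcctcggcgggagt
H2BC4: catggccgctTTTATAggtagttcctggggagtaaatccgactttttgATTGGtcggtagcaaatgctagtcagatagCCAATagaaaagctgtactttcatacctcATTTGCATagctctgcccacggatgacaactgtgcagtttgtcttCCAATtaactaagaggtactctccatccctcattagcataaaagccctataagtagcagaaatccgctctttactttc
H2BC17: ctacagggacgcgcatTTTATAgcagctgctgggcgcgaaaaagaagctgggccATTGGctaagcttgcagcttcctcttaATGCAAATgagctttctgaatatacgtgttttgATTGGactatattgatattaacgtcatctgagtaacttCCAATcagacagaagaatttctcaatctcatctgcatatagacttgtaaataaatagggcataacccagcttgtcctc
H2AJ: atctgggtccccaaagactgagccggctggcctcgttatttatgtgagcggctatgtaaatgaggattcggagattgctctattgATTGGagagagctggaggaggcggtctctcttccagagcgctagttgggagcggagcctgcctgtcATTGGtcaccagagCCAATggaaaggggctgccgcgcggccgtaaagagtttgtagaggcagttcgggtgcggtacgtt
H4C8: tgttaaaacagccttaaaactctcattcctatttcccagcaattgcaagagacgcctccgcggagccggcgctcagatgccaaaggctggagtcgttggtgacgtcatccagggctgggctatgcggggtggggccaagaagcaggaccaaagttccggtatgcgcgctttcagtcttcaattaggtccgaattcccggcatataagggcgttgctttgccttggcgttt
H1-2: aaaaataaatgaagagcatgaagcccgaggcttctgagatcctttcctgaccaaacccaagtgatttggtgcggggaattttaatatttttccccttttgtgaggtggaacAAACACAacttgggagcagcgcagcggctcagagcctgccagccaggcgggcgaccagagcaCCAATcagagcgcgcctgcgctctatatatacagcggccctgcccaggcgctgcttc

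Promoter windows of 300 bases, from 250 before to 50 after the start, were at hand for 44 of the 46 genes and for 27305 genes in all. CCAAT stood in 38 of the 44 histone windows (86.4%) and in 35.7% of all windows. TATAAA stood in 28 histone windows (63.6%) against 11.95% of all. The octamer stood in 16 histone windows (36.4%) against 1.80% of all, and these were 10 of 13 H2B and 6 of 9 H2A windows. These windows are not all separate: in 3 pairs of an H2A and an H2B gene described below, the windows overlap and 1 octamer is counted in both. The H1 box stood in 7 histone windows (15.9%) against 5.76% of all, and each of those 7 belonged to 1 of the 9 H1 genes. No match of one motif overlapped a match of another in the histone windows. Of the 5 genes that passed the siRNA test, 4 had a CCAAT match, 3 a TATAAA match and 2, H2BC4 and H2BC17, an octamer. The TATAAA matches of H2BC4 (−220 to −215) and H2BC17 (−214 to −209) lay on the opposite strand. Only H2BC5 had one on its own strand, at −28 to −23. The 39 other genes had CCAAT in 34, TATAAA in 25 and the octamer in 14 windows. H2BC5 carried 4 CCAAT matches and no octamer, H2AJ had 3 CCAAT matches and no other motif, and no match of these letters lay in the H4C8 window. These are letter matches and show nothing about which factors were bound.

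**Figure D1:**
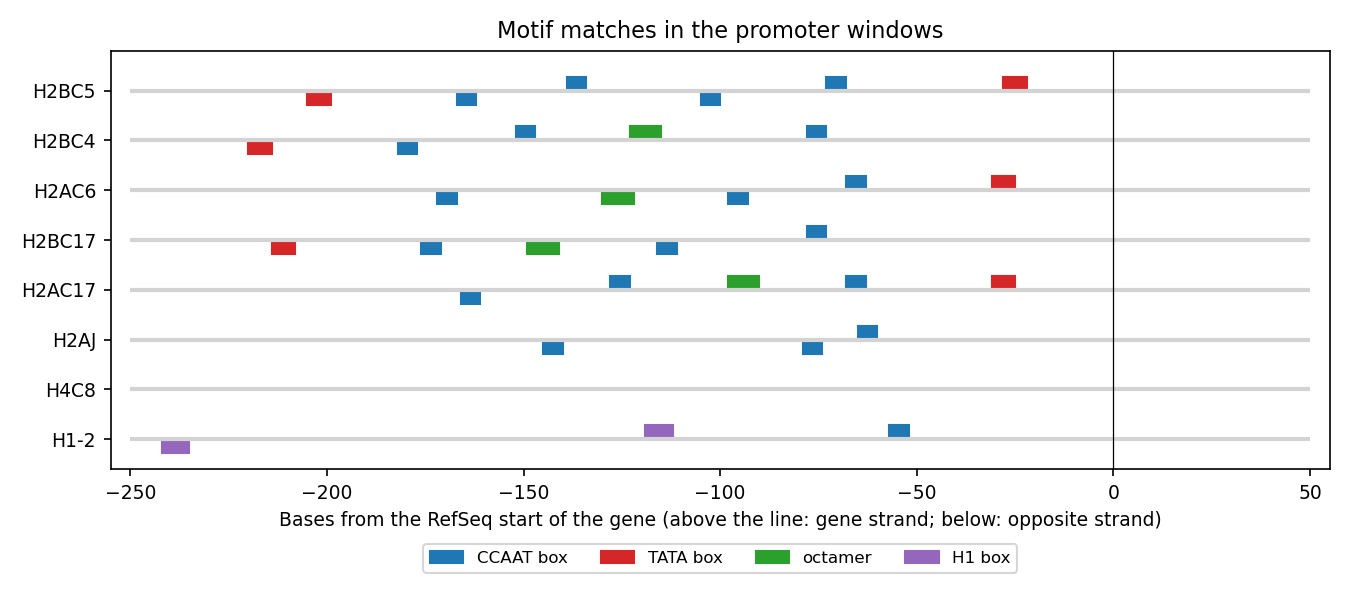
Positions of matches to 4 motifs in the 300-base promoter windows of 8 histone genes, in bases from the gene's start, drawn above the line for the gene's strand and below it for the opposite strand. The H2A and H2B windows hold several CCAAT matches each, H2BC4, H2AC6, H2BC17 and H2AC17 hold an octamer, and the H4C8 window holds no match. The octamer of H2BC4 and H2AC6 is the same site in overlapping windows, and so is that of H2BC17 and H2AC17.

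The arrays were alike in scale, with median signals from 73.3 to 75.4. The siRNA target was lower on both hMOF siRNA arrays. Signals are given below in the order scramble, then hMOF siRNA. KAT8 (221820_s_at) read 402 then 106 in A549 and 241 then 61.8 in H1299, so 26.4% and 25.6% of the signal was left (adjusted p = 0.00525). A dimmer KAT8 probe set (214885_at) read 61.6 then 51.6 in A549 and 61.7 then 39.8 in H1299, and did not pass the test (adjusted p = 0.256). The cell lines had distinct marker levels. CDH1, an epithelial adhesion gene, read 1535 and 1562 in A549 against 8.04 and 7.61 in H1299, and CDKN2A, deleted in A549, read 33.5 and 46.5 there against 1317 and 1176. All 6 epithelial markers were higher in A549. Of 5 mesenchymal markers, VIM, ZEB1 and ZEB2 were higher in H1299 while CDH2 and SPARC were higher in A549. The summed signal of 3 leukocyte markers ran from 214 to 231 over the arrays and that of 3 endothelial markers from 339.9 to 379.8. The summed signal of 4 fibroblast markers went from 729 to 1383 between the A549 arrays, through COL1A1, and was 181 and 187 in H1299. The 3′/5′ signal ratio of ACTB, a measure of RNA integrity, was 3.11 then 2.78 in A549 and 2.89 then 2.64 in H1299. That of GAPDH was highest, at 1.197, with hMOF siRNA in A549 and lowest, at 1.09, with hMOF siRNA in H1299. The part of these differences in the results was not tested.

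The first comparison asked which histone probe sets differed between hMOF siRNA and scramble siRNA on average over both lines. The 5 genes that passed were 3 H2B genes, the H2A variant H2AJ and the H4 gene H4C8. H2BC5 was 3.91-fold higher on average over the lines, H2BC4 2.47-fold, H2AJ 2.21-fold and 2.18-fold by its brighter probe sets, and H2BC17 1.78-fold. The H2BC5 and H2AJ sets that passed are all of the _x_at kind. Another H2BC5 set (222067_x_at, 1.97-fold) and the other H2AJ sets (228213_at, 0.98-fold, and 220936_s_at, 1.20-fold) did not pass. H4C8 was 1.80-fold and 1.49-fold higher by its probe sets. None of the member sets of H1 or H3 genes passed the test, and no member of any family passed it as lower. A set shared by 10 H3 genes, which is no member, did pass as higher (206110_at, adjusted p = 0.015). Another set of the same 10 genes was slightly below 0 in both lines and did not pass (214646_at, adjusted p = 0.844). These folds are of the signal plus an offset of 29.06, the 20th percentile of all signals, which shrinks the ratios of dim probe sets. With 1 array per group the lines were the only repeats, so the test, limma with a term for cell line over all 54613 probe sets that are not controls, measures only the spread between these arrays. In RNA of whole cultures, a change in the share of cells that express a gene and a change in RNA per cell cannot be told apart.

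By that test 7 of the 57 histone probe sets (12.3%), of 5 genes, were higher with hMOF siRNA at an adjusted p under 0.05, where 720 of all probe sets, or 1.32%, were. As lower, 0 members passed, where 2.61% of all probe sets did. At an unadjusted p under 0.05, 18 members (31.6%) were higher, against 6.91% of all probe sets, and 1 (1.75%), H1-10 (204805_s_at), was lower, against 9.82%. Within a line, where 1 array stands against 1 and there is no test, 7 members (12.3%) were at least 2-fold higher in A549, against 0.355% of all probe sets, and 0 were 2-fold lower, against 0.504%. In H1299, 5 members (8.77%) were 2-fold higher, against 0.621%, and 0 were 2-fold lower, against 1.01%. In both lines at once, 4 members (7.02%) were 2-fold higher, against 0.126%, and 0 lower, against 0.315%. The sign was up in both lines for 31 members (54.4%), against 31.2% of all probe sets, and down in both for 6 (10.5%), against 29.2%. The other 20 had opposite signs.

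The median log2 ratio over the 57 members was 0.11 in A549 and 0.19 in H1299, where all probe sets had medians of 0.00 and 0.01. Without the offset, 0 members and 0 of all probe sets passed limma's test, the smallest adjusted p over all being 0.0582, while 18 members (31.6%) were higher and 0 lower at an unadjusted p under 0.05, against 6.71% and 8.23% of all. With the term for cell line dropped, limma also called 0 of all probe sets, with 7 members (12.3%) higher and 0 lower at an unadjusted p under 0.05, against 1.1% and 1.73% of all. The calls below therefore rest on that offset and on pairing the arrays by line.

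**Figure D2:**
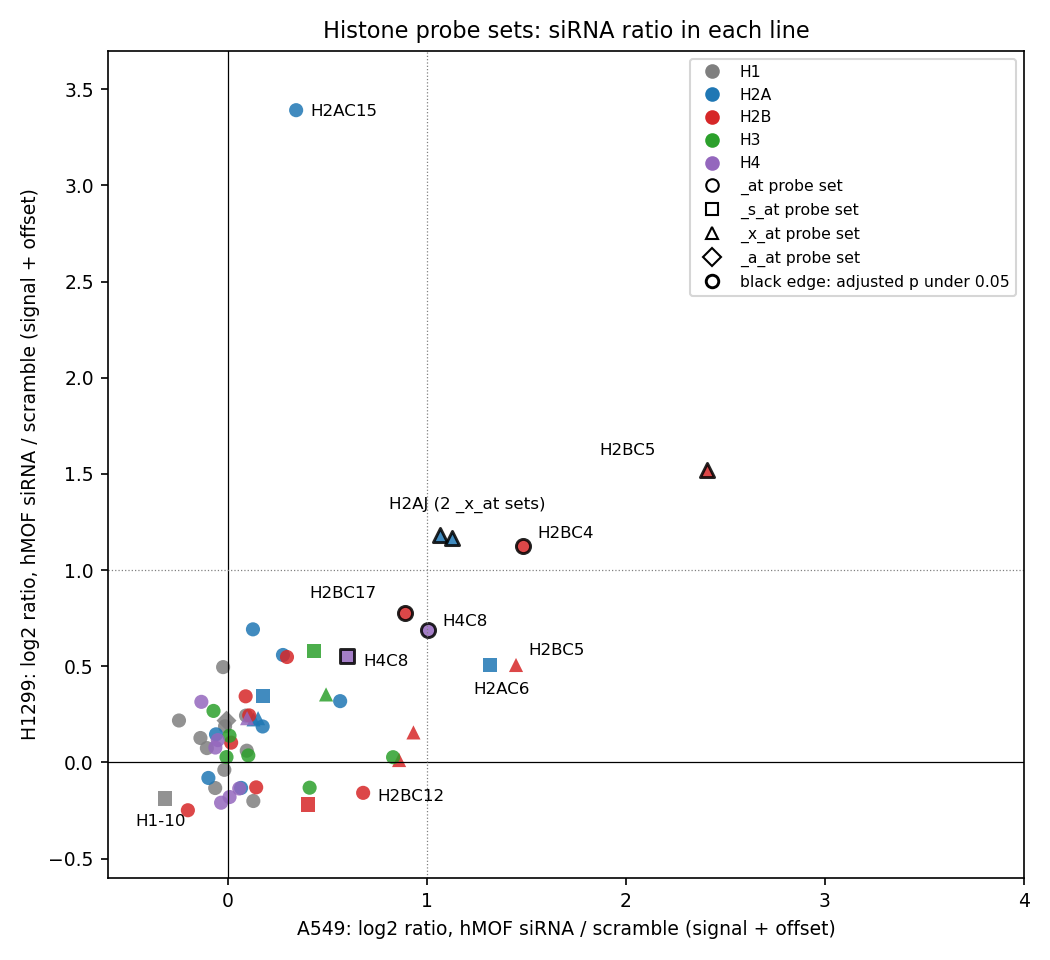
Log2 ratio of hMOF siRNA over scramble for the 57 histone probe sets, A549 on the horizontal and H1299 on the vertical axis, each of signal plus offset, with colour for the family, shape for the probe set suffix and dotted lines at 2-fold. The 7 black-edged points that passed the test lie up and to the right, H2AC15 stands alone with 3.39 in H1299 and 0.34 in A549, and H1-10 lies lowest in A549 at −0.32.

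H2BC5 encodes an H2B of the large chromosome 6 cluster. Its probe set 209911_x_at read 244 then 1425 in A549 and 519.7 then 1546 in H1299. Both hMOF siRNA arrays were above both scramble arrays, and they lay closer to each other than the scramble arrays did. The log2 ratios were 2.41 and 1.52, with a mean of 1.97 ± 0.20 (SE) and an adjusted p of 0.00849. The other H2BC5 probe set, 222067_x_at, read 189.5 then 567 in A549 and 548 then 790.4 in H1299. Here the A549 hMOF siRNA array was only just above the H1299 scramble array, and the ratios of 1.45 and 0.51 did not pass the test (adjusted p = 0.0608). Both sets are of the _x_at kind, so neither can be taken as specific to H2BC5.

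H2BC4, another H2B gene of that cluster, was read by a plain set, 236193_at. It gave 24.5 then 120.4 in A549 and 186 then 438 in H1299. Within each line the hMOF siRNA array was the higher, although the A549 hMOF siRNA array was below both H1299 arrays. The log2 ratios were 1.48 and 1.12, with a mean of 1.30 ± 0.12 (SE) and an adjusted p of 0.00703. H2BC17, an H2B gene near the other end of the chromosome 6 genes, was also read by a plain set, 214540_at. It gave 32.2 then 84.7 in A549 and 64.1 then 131 in H1299. Both hMOF siRNA arrays exceeded both scramble arrays, with log2 ratios of 0.89 and 0.78 and an adjusted p of 0.0123. H2BC17's mean signal was below the median of all probe sets.

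The remaining H2B probe sets with high signals were higher with hMOF siRNA in A549 and near level in H1299. H2BC12 (209806_at), which had the highest mean signal of the members, read 2395 then 3855 in A549 but 5589.8 then 5006 in H1299. The H1299 arrays were both above the A549 arrays, and their order was the opposite one, so the log2 ratios were 0.68 and −0.16 (adjusted p = 0.612). H2BC6 (208527_x_at) read 334 then 631 in A549 and 964 then 973 in H1299. H2BC9 (208546_x_at) read 136 then 287 in A549 and 405 then 455 in H1299. For both, the H1299 pair was the higher and nearly flat, and neither passed the test (adjusted p = 0.334 and 0.193). Over the 14 H2B probe sets the median log2 ratio was 0.54 in A549 and 0.20 in H1299. The ratio was the larger one in A549 for 10 of these 14, against 3 of the 14 H2A probe sets and 26126 of all 54613, and the difference between the lines was not tested. Only H2BC13 was below 0 in both lines, at −0.20 and −0.25.

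Among the H2A genes only H2AJ passed the siRNA test, with nearly equal ratios in the lines. H2AJ encodes an H2A variant outside the clusters, on chromosome 12, and is known for its accumulation in senescent cells. Its set 225245_x_at read 1390.0 then 3066 in A549 and 1451 then 3298 in H1299. Its set 224301_x_at read 1411 then 2986 in A549 and 1379 then 3168 in H1299. In both sets the scramble arrays lay close together, the hMOF siRNA arrays lay close together, and the groups did not overlap. The log2 ratios were 1.13 and 1.17 for 225245_x_at (adjusted p = 0.00604) and 1.07 and 1.18 for 224301_x_at (adjusted p = 0.00641).

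The other H2AJ probe sets did not show this. The plain set 228213_at read 189.5 then 199.9 in A549 and 146 then 131 in H1299, and 220936_s_at read 97.5 then 114 in A549 and 104 then 140.4 in H1299. Neither passed the test (adjusted p = 0.938 and 0.272), so the H2AJ probe sets disagree by kind, and the higher ones are both of the _x_at kind.

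H2AC6, an H2A gene that lies head to head with H2BC4, was read by 215071_s_at at 515 then 1329 in A549 and 981 then 1406 in H1299. Both hMOF siRNA arrays were above both scramble arrays. The log2 ratios of 1.32 and 0.51 just missed the threshold (adjusted p = 0.0545). H2AC15 had the largest single ratio of the members. Its plain set 239041_at read 33.9 then 50.8 in A549 and 64.2 then 949 in H1299, so only the H1299 hMOF siRNA array was high. The log2 ratios were 0.34 and 3.39, and the mean of 1.87 ± 0.61 (SE) did not pass (adjusted p = 0.183). The other H2AC15 set, 214644_at, read between 41.1 and 47.3 on the 4 arrays. The probe sets of that gene thus disagree, and the high value rests on 1 array of 1 set.

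Of the further H2A genes, H2AC25 (221582_at) read 176 then 274 in A549 and 218 then 279 in H1299 (adjusted p = 0.0896), and its dimmer set 231681_x_at read 62.6 then 71.2 in A549 and 59.8 then 74.7 in H1299. H2AC17 (214481_at) had log2 ratios of 0.28 and 0.56 (adjusted p = 0.113). Of the 14 H2A probe sets, 11 were above 0 in both lines and only 214644_at of H2AC15 was below 0 in both. The family's median log2 ratio was 0.18 in A549 and 0.33 in H1299.

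**Figure D3:**
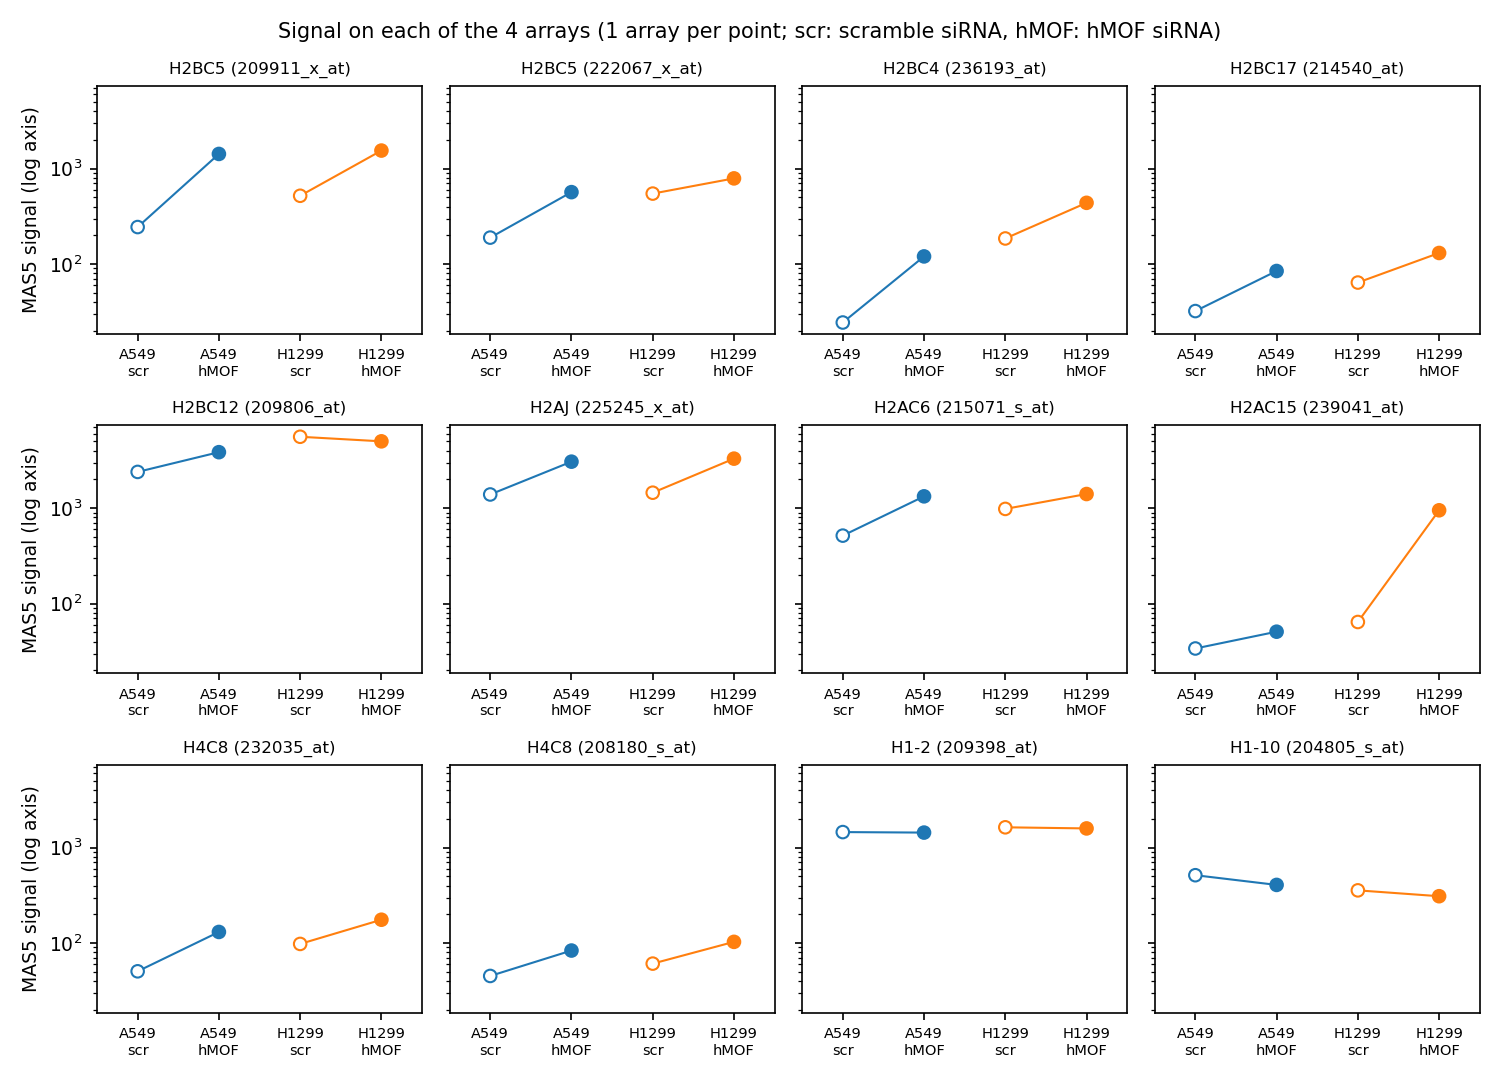
MAS5 signal on a log axis for 12 histone probe sets on each of the 4 arrays, open points for scramble and filled points for hMOF siRNA, with a line joining the arrays of a cell line. H2BC5, H2BC4, H2BC17, H2AJ and H4C8 slope up in both lines, H2BC12 slopes up in A549 and down in H1299, H2AC15 (239041_at) jumps in H1299 to 949, and H1-2 is flat between 1437 and 1633.

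Histone H4 is the substrate of hMOF, and its genes encode the same protein apart from H4C7, a divergent copy. H4C8 was the only H4 gene to pass the test with a probe set of its own, and both of its sets did. The plain set 232035_at read 50.7 then 131 in A549 and 98.1 then 176 in H1299, which is 2.01-fold and 1.61-fold in signal plus offset (adjusted p = 0.0176). The set 208180_s_at read 45.3 then 83.6 in A549 and 61.0 then 103 in H1299, with log2 ratios of 0.60 and 0.55 (adjusted p = 0.0322). In both sets the hMOF siRNA arrays exceeded the scramble arrays without overlap. The calls were near the threshold: averaged, the H4C8 sets did not pass (adjusted p = 0.0521), 232035_at did not pass with the brightest set per gene (0.0529), and 208180_s_at did not with an offset at the 40th percentile (0.0651). The 7 other H4 probe sets ranged from −0.13 to 0.10 in A549 and from −0.21 to 0.31 in H1299. Among them only 214463_x_at of H4C11 was above 0 in both lines. The H1299 median over all 9 was 0.12. The A549 median was 0.01, and it lay on the other side of 0 with quantile normalization (−0.003) and with loess (−0.01). Of the sets shared by 14 H4 genes, H4C8 among them, 205967_at and 214516_at were below 0 in both lines. The shared sets 208580_x_at and 207046_at were above 0 in both, 208181_at had opposite signs, and none of these sets passed.

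The H3 probe sets were dim, with a median signal from 31.4 to 68.9 on the arrays, and none of the 8 single-gene sets passed. H3C2 (208576_s_at) came closest, reading 56.2 then 86.1 in A549 and 53.3 then 93.9 in H1299, without overlap of the groups (adjusted p = 0.0514). H3C8 (208496_x_at) read 265 then 386 in A549 and 259.6 then 339.7 in H1299 (adjusted p = 0.0828). H3C6 was read by sets that differed: 236278_at gave 58.1 then 126 in A549 but 5.65 then 6.31 in H1299, while 214616_at gave 37.2 then 37.6 in A549 and 22.1 then 27.3 in H1299. The median log2 ratio of the H3 sets was 0.26 in A549 and 0.09 in H1299.

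No probe set of a linker histone passed the siRNA test. H1-2, a main somatic H1, read 1455 then 1437 in A549 and 1633 then 1589 in H1299, with log2 ratios of −0.02 and −0.04 (adjusted p = 0.944). All 4 arrays were within a narrow span. H1-10 (204805_s_at), an H1 variant made outside S phase as well, read 514 then 407 in A549 and 357 then 309.9 in H1299. The hMOF siRNA array was the lower in each line, with log2 ratios of −0.32 and −0.19 that did not pass (adjusted p = 0.280). Its A549 ratio was the lowest of all members in that line. H1-3, another somatic H1, read 545 then 493 in A549 and 327 then 360.2 in H1299. The sets of the germ cell genes H1-6 (1553568_a_at and 207982_at) and H1-7 (236876_at, 238373_at and 238374_at) read between 30.9 and 134 and had no common direction. The 12 H1 probe sets had median log2 ratios of −0.02 and 0.10, 2 were above 0 in both lines and 3 below.

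The suffix groups differed in signal and in ratio. The 40 plain _at sets had median log2 ratios of 0.06 and 0.12 and 3 calls, of H2BC4, H2BC17 and H4C8. The 6 _s_at sets had medians of 0.42 and 0.43 and 1 call, of H4C8. All 10 _x_at sets were above 0 in both lines, with medians of 0.90 and 0.29 and 3 calls, of H2BC5 and of both H2AJ sets. These 10 sets are of 8 genes. Over all probe sets of the array, the _x_at sets had medians of 0.00 and 0.01, and 1316 of 4207 were above 0 in both lines. Called higher over the array were 404 of 37394 plain _at sets, 246 of 11292 _s_at sets and 60 of 4207 _x_at sets. The median of the sets' mean signals was 63.8 for the plain histone sets and 422 for the _x_at sets. With _x_at and _s_at sets left out of the whole table, 3 histone sets were called higher, 2 were 2-fold higher in A549, 2 in H1299 and 1 in both. These 3 calls were 7.32% of the 41 sets left, against 1.02% of all. The 2-fold counts were 4.88%, 4.88% and 2.44%, against 0.332%, 0.47% and 0.0844% of all. With the probe sets of each gene averaged, 2 of 46 histone genes were called (4.35%, against 0.41% of all genes), and H2BC5 (adjusted p = 0.0709), H2AJ and H4C8 (both 0.0521) were not. With the brightest set of each gene 4 were called (8.7%, against 0.617%). Of the members, 29 had a mean signal at or above 78.1, the median of all probe sets, and 5 of these were called. Of the 28 dimmer members 2 were called, and the share of all dimmer probe sets was not counted. In a fit of only the probe sets at or above 78.1, 5 members (17.2%) were called higher, against 1.93% of all.

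Position along chromosome 6 was read from RefSeq's gene order. The genes fell into 4 groups separated by wide gaps, with 1, 24, 3 and 12 genes. The group from H1-1 to H4C8 held 3 of the called genes, H2BC4, H2BC5 and H4C8, with median log2 ratios of 0.10 (A549) and 0.14 (H1299), taking the brightest probe set of each gene. The group from H2BC13 to H2BC17 held the other, H2BC17, with medians of 0.13 and 0.23. Genes next to called ones were not uniformly higher. Among the genes followed, H1-4 comes between H2AC6 and H2BC5, and it had log2 ratios of −0.06 and −0.13 at low signals between 34.8 and 49.7.

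In 3 pairs of an H2A and an H2B gene that point away from each other, the promoter windows shared more than 250 of their 300 bases. H2BC4 and H2AC6 shared 255 bases and both had ratios above 0 in both lines. H2AC17 and H2BC17 shared 261 bases, with log2 ratios of 0.28 and 0.56 for H2AC17 and 0.89 and 0.78 for H2BC17. H2AC14 (208583_x_at) and H2BC14 shared 256 bases, with ratios of 0.15 and 0.23 for H2AC14 and 0.14 and −0.13 for H2BC14. In the pairs with H2BC4 and H2BC17 only the H2B gene passed the test, and the difference between partners was not tested.

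**Figure D4:**
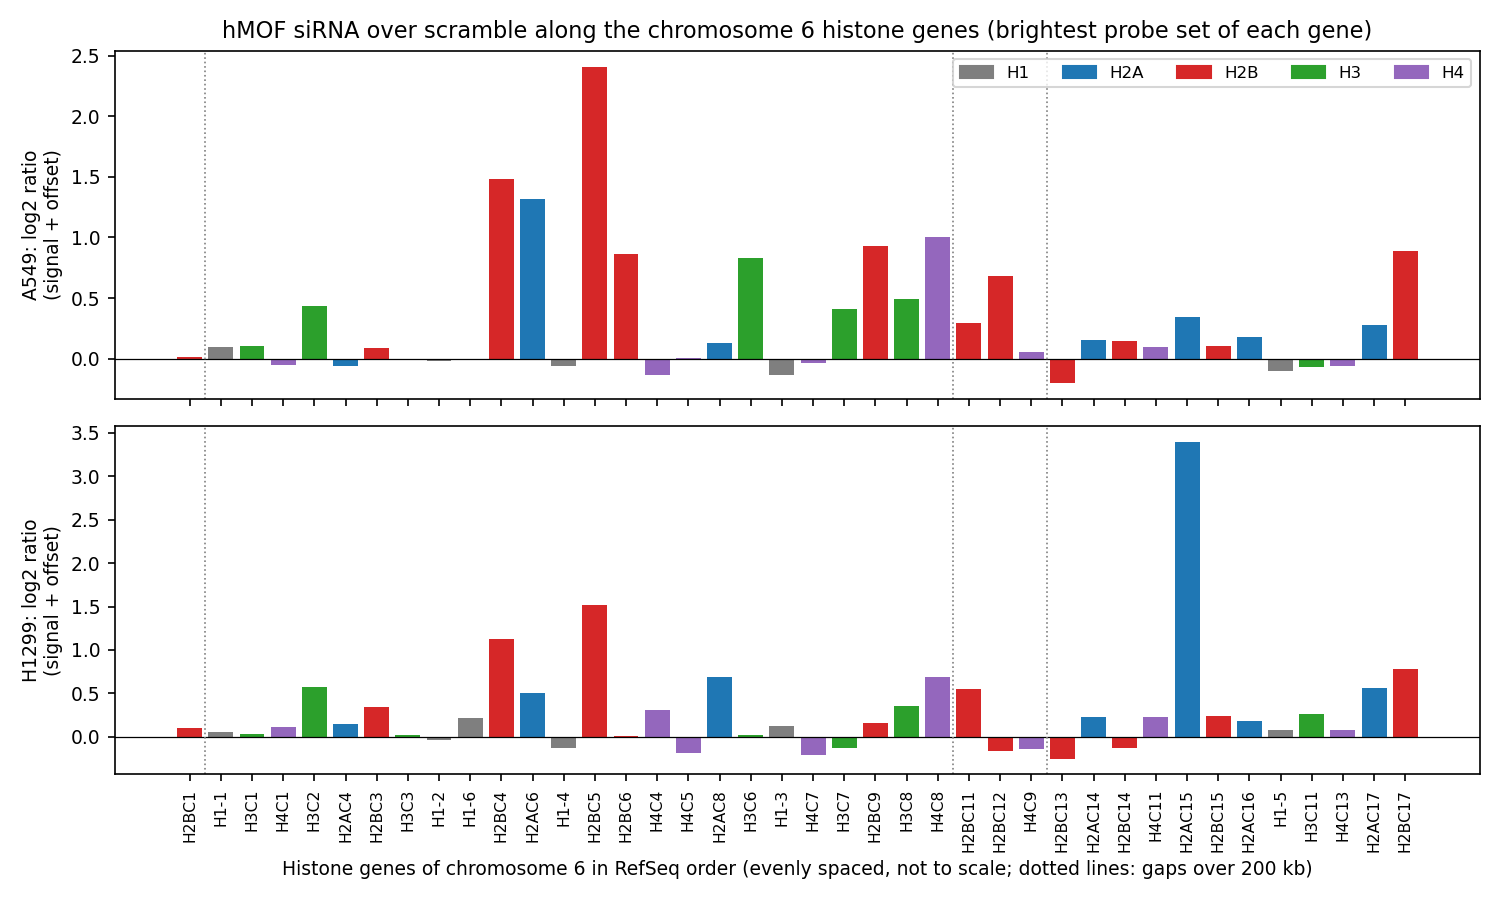
Log2 ratio of hMOF siRNA over scramble for the brightest probe set of each of 40 histone genes of chromosome 6 in RefSeq order, evenly spaced, A549 above and H1299 below, with colour for the family and dotted lines at wide gaps. H2BC4, H2AC6, H2BC5, H4C8 and H2BC17 stand up in both lines, H2AC15 reaches 3.39 in H1299, and the H1 genes stay near 0.

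The second comparison set H1299 against A549 over both siRNAs, with the siRNA as a term in the limma test. H2AC8 and H2BC4 were the histone genes with the firmest excess in H1299, and H3C6 the one with the largest excess in A549 at this offset. By this test 13 of the 57 members (22.8%) were higher in H1299, against 16.1% of all probe sets, and 6 (10.5%) were higher in A549, against 16% of all. These shares are not far from those of the whole array. The H2B family had 7 sets higher in H1299 and 0 higher in A549, the H1 family 1 and 3, the H2A family 3 and 1, the H3 family 0 and 2, and the H4 family 2 and 0.

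H2AC8 (214469_at), an H2A gene, read 5.35 then 8.50 in A549 and 124 then 218 in H1299. The lines did not overlap, and the log2 difference was 2.44 ± 0.15 (SE, adjusted p = 5.53e-05). The A549 signals lie far below the offset, which sets the size of this value: it was 4.61 with no offset and 1.81 with an offset at the 40th percentile, and it passed the test with both. The signals of 236193_at for H2BC4 gave a difference of 1.82 ± 0.12 (adjusted p = 7.97e-05). H2AC17 was higher in H1299 by 1.02 (adjusted p = 0.000694), H2BC6 by 1.03 (adjusted p = 0.00719) and H2BC9 by 1.002 (adjusted p = 0.00607). H2AC15 (239041_at) had a difference of 2.09 (adjusted p = 0.0403), which was 0.57 between the scramble arrays and 3.61 between the hMOF siRNA arrays. Its call was lost with an offset at the 40th percentile (adjusted p = 0.116), with the brightest set per gene (0.0854), with the sets averaged (0.0878) and with the siRNA term dropped (0.303). For H2BC6 the difference was 1.45 under scramble and 0.60 under hMOF siRNA, and for H2BC9 it was 1.39 and 0.61. H2BC12 showed the same order, with 1.21 and 0.37.

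On the other side, H3C6 (236278_at) was lower in H1299 with a log2 difference of −1.73 ± 0.19 (SE, adjusted p = 0.000618). Its signals in H1299, 5.65 and 6.31, are likewise below the offset, and the value was −3.84 with no offset, −1.21 with an offset at the 40th percentile and −1.02 with the gene's sets averaged, each past the test. H1-3 had a difference of −0.56 (adjusted p = 0.00912), H1-6 (1553568_a_at) of −0.50 (adjusted p = 0.0129) and H1-10 of −0.43 (adjusted p = 0.0184). H3C7 had one of −0.57 (adjusted p = 0.0247) and the plain H2AJ set 228213_at one of −0.42 (adjusted p = 0.0233). The H2AJ sets that were higher with hMOF siRNA differed little between the lines, by 0.08 and 0.03. With the siRNA term dropped, 3 members (5.26%) were higher in H1299, against 9.45% of all probe sets, and 3 in A549, against 9.74%.

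**Figure D5:**
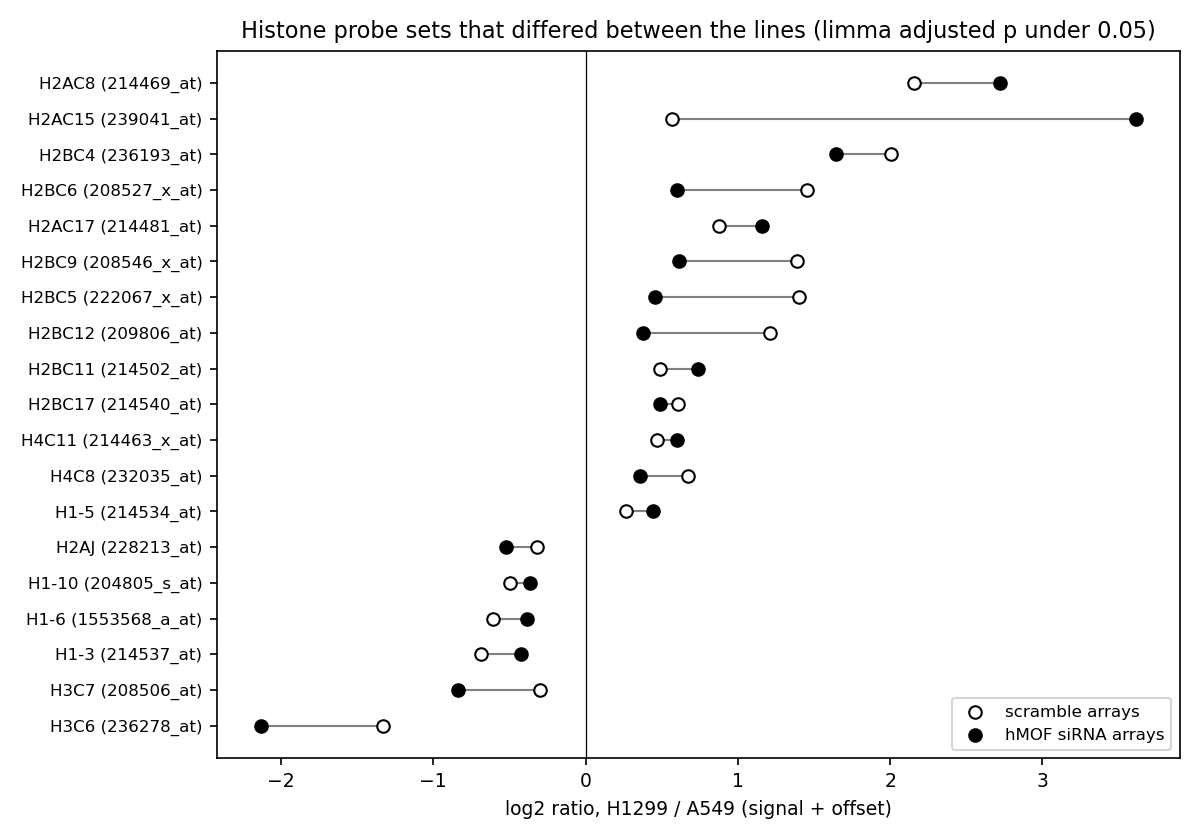
Log2 ratio of H1299 over A549, signal plus offset, for the 19 histone probe sets that passed the line test, open points for the scramble arrays and filled points for the hMOF siRNA arrays. The H2AC8 and H2BC4 points lie far right under both siRNAs, the H2AC15 points lie at 0.57 and 3.61, and H3C6 lies farthest left.

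Genes that make, carry or accompany histones were read through lists of known members, each gene by its brightest single-gene probe set. By the same test, 1.32% of all probe sets were called higher and 2.61% lower. The calls in these lists were not checked under the other settings. Of 27 genes for histone gene transcription and 3′ end processing, 26 were measured. CSTF3, a subunit of the cleavage stimulation factor, was higher with hMOF siRNA, with log2 ratios of 0.50 in A549 and 0.65 in H1299 (adjusted p = 0.0362), and it was the only one called. CSTF2T, a relative of the factor's CSTF2 subunit, had ratios of 0.31 and 0.53. TUT7, a uridylyltransferase, had −0.46 and −0.35, and GON4L, a transcriptional regulator, had −0.25 and −0.45, and these 3 did not pass. The list's median log2 ratio was −0.12 in A549 and 0.13 in H1299.

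All 23 histone chaperones on the list were measured. Of these, 3 were called higher, against 1.32% of all probe sets, and 1 lower, against 2.61%. Each of these calls lay near the threshold. ASF1A, which hands H3 and H4 to assembly factors, had ratios of 0.48 and 0.77 (adjusted p = 0.0383), while its paralogue ASF1B, the form tied to proliferation, had −0.61 and −0.49 (adjusted p = 0.0400). NASP, which holds a reserve of H3 and H4, had 0.45 and 0.88 (adjusted p = 0.0475), and VPS72, an H2A.Z chaperone, had 0.44 and 0.70 (adjusted p = 0.0458). MCM2, a helicase subunit that also binds histones, had −0.63 and −0.03 and was not called. The list's medians were −0.02 and 0.10.

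Of 14 replication-independent histone variants 8 were measured, and MACROH2A2, a macroH2A gene, was the only call, at 0.61 and 0.79 (adjusted p = 0.0217). CENPA, the centromeric H3, had 0.39 and 0.82 (adjusted p = 0.0606), H2AZ1 −0.15 and 0.15, and H2AZ2 −0.17 and −0.22, and the list's medians were 0.14 and 0.23. Of 20 S phase genes 19 were measured. RRM2, a ribonucleotide reductase subunit, read 1696 then 3111 in A549 and 2706 then 5695 in H1299 and was the only call (log2 ratios 0.86 and 1.07, adjusted p = 0.0101). Its partner RRM1 had 0.14 and 0.60, CDC6, a replication licensing factor, had −0.56 and 0.09, and neither was called. The S phase list had median log2 ratios of −0.15 in A549 and 0.26 in H1299, beside 0.11 and 0.19 for the histone members.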

How the data were processed

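Total RNA from the A549 and H1299 cultures, extracted with Trizol, was labelled as biotinylated cRNA from 6 ug and hybridised to 1 Affymetrix array per group, per the labels. Per the submitters' processing notes, MAS5 was used, and the deposited table holds its intensity for each probe set on a linear scale. The version and scaling of MAS5 are not given in these sources. MAS5 values vary most at low signal. Arrays of a line correlated at r = 0.988 (A549) and 0.983 (H1299) over all log2 values, against 0.889 to 0.900 between lines, and were treated as a pair through a term for cell line. The labels used here give no batch.

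Of 54675 probe sets, 62 controls were left out, 41091 had 1 gene in the platform annotation, 1801 several and 11721 none. Signals were used as deposited, with no filter. An offset of 29.06 was added before log2. limma 3.58.1 (lmFit and eBayes, R 4.3.3) was fitted to 54613 probe sets with terms for cell line and siRNA, with 1 residual degree of freedom per probe set and Benjamini-Hochberg adjustment over all of them, at a threshold of 0.05. eBayes drew the variance of each probe set toward that of the others, with 5.46 prior degrees of freedom. The p-values and SEs therefore measure a spread between these arrays that is largely pooled over probe sets, and which may be technical. The number of arrays limits the precision.

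The members and the gene lists were chosen with earlier results of these data known. Named were KAT8, members called for siRNA or 2-fold in both lines, members 2-fold in 1 line with a signal above the 50th percentile, the 8 members with the highest mean signal, the 6 largest line differences each way, genes with several member sets, and list members called or among the 2 largest mean changes each way. Others named (H1-1, H1-4, H2AC14, H2BC13, H2BC14, H2BC21, H3C2, H3C8, H4C11) were chosen after their values were seen, or for their position. Promoters are from RefSeq, GRCh38.p14. Alternatives were other offsets, signal filters, scalings, probe set rules, eBayes with trend, dropping the line or siRNA term, and leaving out each line or siRNA. Figures used matplotlib 3.10.9.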

Additional observations from a re-analysis of the deposited data

Results flagged for a closer look

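Several histone probe sets had opposite signs in the lines with log2 ratios at least 0.5 apart, and with 1 array per group the difference between the lines was not tested. H2BC12 (209806_at) had log2 ratios of 0.68 in A549 and −0.16 in H1299. H2BC21 (202708_s_at), an H2B gene on chromosome 1, had 0.40 and −0.22, from signals of 177 then 243 in A549 and 244 then 205 in H1299. H3C7 (208506_at) had 0.41 and −0.13, from 95.0 then 136 in A549 and 71.9 then 63.1 in H1299. H1-7 (236876_at) had −0.024 and 0.50, at signals between 48.7 and 80.6.

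A probe set outside the members, because it is annotated to the 5 genes H2BC4, H2BC10, H2BC6, H2BC7 and H2BC8, was at least 2-fold higher with hMOF siRNA in both lines. This set, 214455_at, read 23.3 then 89.1 in A549 and 168 then 386 in H1299, with a mean log2 ratio of 1.13 (limma, adjusted p = 0.0064). The other sets annotated to these 5 genes did not pass. The brighter 208490_x_at read 575 then 1086 in A549 but 1389.5 then 1275 in H1299 (limma, adjusted p = 0.488). The dimmer 208523_x_at had log2 ratios of 0.16 in A549 and 0.07 in H1299 (limma, adjusted p = 0.683).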

How the results depend on the processing

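The 57 histone probe sets gave 7 calls as higher with hMOF siRNA, which is 12.3% against 1.32% of all probe sets. The count was 0 with no offset. It was also 0 with no replicate block (the cell line term dropped, so that the arrays are not paired by line). It was 4 with the brightest probe set per gene, 2 with probe sets averaged per gene and 3 without _x_at and _s_at sets. Those were 8.7%, 4.35% and 7.32%, against 0.617%, 0.41% and 1.02% of all. With an offset at the 40th percentile (56.5) the count was 6. It was 5 with a filter at the 50th percentile (29 members kept) and 6 with one at the 70th (16 kept). Those were 10.5%, 17.2% and 37.5%, against 0.564%, 1.93% and 3.36% of all. It was 10 with quantile normalization, 7 with arrays centred, 7 with loess and 10 with eBayes trend. Those were 17.5%, 12.3%, 12.3% and 17.5%, against 1.75%, 1.12%, 1.55% and 1.25% of all. No member was called lower in any of these fits. The 2-fold counts were 7 in A549, 5 in H1299 and 4 in both lines. With probe sets averaged they became 3, 3 and 2, or 6.52%, 6.52% and 4.35%, against 0.258%, 0.501% and 0.101% of all. Without _x_at and _s_at sets they became 2, 2 and 1, or 4.88%, 4.88% and 2.44%, against 0.332%, 0.47% and 0.0844% of all. Between the lines, 13 higher and 6 lower in H1299 became 6 and 2 with the filter at the 70th percentile. With 16 members kept, these were 37.5% and 12.5%, against 30.3% and 29.2% of all. The counts were 3 and 3 with no replicate block (the siRNA term dropped), or 5.26% each, against 9.45% and 9.74% of all. Each of the 7 calls was lost with no offset and with the line term dropped, those of H2BC5, H2AJ and H4C8 also with sets averaged, and those of H4C8 under 1 further alternative each. H2AC6 (215071_s_at) and H2BC5 (222067_x_at) gained a call under 3 alternatives, among them quantile normalization. The H2BC12 log2 ratio, 0.26 over both lines, reversed to −0.16 without the A549 arrays and was 0.68 without the H1299 arrays. Of all calls for siRNA, 66.4% were lower, against 57.2% with quantile normalization. The cause of these shifts was not tested beyond what each setting itself leaves out. At low signal, 28 members lay below the median of all probe sets, where 1 array per group limits what can be told.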

Other observations

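Probe sets that the annotation ties to several histone genes, 20 in all, were kept out of the members. Of these, 14 were above 0 in both lines with hMOF siRNA and 3 below, with median log2 ratios of 0.18 in A549 and 0.19 in H1299, and limma called 3 higher and 0 lower. Beside the H2B set 214455_at described above, the calls were 206110_at and 218280_x_at. The set 206110_at, shared by 10 H3 genes, read 155 then 318 in A549 and 283 then 484 in H1299 (adjusted p = 0.015). Another set of these 10 genes, 214646_at, read 48.2 then 46.9 in A549 and 47.2 then 41.7 in H1299 (adjusted p = 0.844). The set 218280_x_at, shared by H2AC18 and H2AC19, read 328 then 540.2 in A549 and 321 then 455 in H1299 (adjusted p = 0.0409). Another set of H2AC18 and H2AC19, 214290_s_at, read 1477 then 1646 in A549 and 1490.1 then 1478 in H1299 and was not called (adjusted p = 0.839).

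The set with the highest signal, 205967_at, is shared by 14 H4 genes. It read 7727 then 6223 in A549 and 8102 then 7381 in H1299, with log2 ratios of −0.31 and −0.13 (adjusted p = 0.364). H4C8 is among those genes, and its own sets were higher with hMOF siRNA. A second set of the same 14 H4 genes, 214516_at, read 229 then 189 in A549 and 281 then 238 in H1299 (adjusted p = 0.320). The other sets of these genes, 208580_x_at, 207046_at and 208181_at, had mean log2 ratios of 0.26, 0.34 and 0.10 and were not called.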
